A study of Mus musculus with 17 samples.

Results

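Cytosolic ribosomal protein genes encode the proteins of the ribosome that works in the cytosol. They were followed here in the kidneys of lean db/m and obese, diabetic db/db mice. The set was taken by symbol from protein-coding genes named Rpl or Rps with a number, the P stalk genes Rplp0, Rplp1 and Rplp2, and Rpsa, leaving out the S6 kinases, symbols marked as pseudogenes and predicted genes. Of 86 such symbols among the 55487 gene identifiers of the table, 56 had at least 10 counts in 8 or more of the 17 libraries and form the set. It holds 30 large subunit genes, 17 small subunit genes, 3 P stalk genes, 5 paralogs (Rpl7l1, Rpl22l1, Rpl36al, Rps27l and Rps27rt) and Rps19bp1. Rps19bp1 matches the symbol rule but encodes a protein that binds a ribosomal protein and is not part of the ribosome.

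The ribosome has a small subunit, which reads the messenger RNA, and a large subunit, which joins the amino acids. Each ribosomal protein is normally built into a ribosome as a single copy, while the acidic proteins P1 and P2 form the flexible P stalk on a base of P0 and draw in the translation factors. Most ribosomal protein messenger RNAs start with a C followed by a run of pyrimidines, the 5′ terminal oligopyrimidine (TOP) motif, through which the kinase complex mTORC1 and the protein LARP1 control their translation and stability. Kidney growth and tubular hypertrophy in diabetes are a known setting of mTORC1 activity.

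Kidney RNA came from 17 male mice at 16 weeks of age, all of the strain BKS.Cg-Dock7m +/+ Leprdb/J, with 1 library per animal. The 8 db/m animals are labelled HE/HE, heterozygous for the leptin receptor mutation and for the coat colour mutation Dock7m. The 9 db/db animals are labelled WT/HO, homozygous for the leptin receptor mutation and without the Dock7m allele, so the groups differ at both genes. Groups follow the titles, whose counts of 8 and 9 are also those of the design and whose names recur in the library names. The genotype field gives all 17 animals the other group, and if that field were right every direction given here would turn around. Whole kidney RNA cannot tell fewer cells of a type from less RNA per cell.

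Each library held between 3256427 and 7627747 counts in genes. Reads outside genes were 20.2% ± 0.451 (SD, n = 8) of db/m libraries and 18.3% ± 2.29 (SD, n = 9) of db/db libraries, down to 15.3% in db/db 7 and 15.5% in db/db 4. Mitochondrially encoded genes took 28.8% ± 1.24 (SD, n = 8) and 27.4% ± 2.60 (SD, n = 9) of gene counts, with the lowest value, 22.0%, in db/db 8. A pair of db/db libraries stood apart: on the first principal component of all genes tested db/db 8 lay at 79.2 and db/db 7 at 43.1, while db/m 8 lay at the other end at -44.3, with db/m 4 at -41.9 and db/db 1 at -40.6. The tissue label fits its markers, since the 10 proximal tubule genes summed to 8115 to 10670 CPM in the db/m libraries and to 8034 to 12443 CPM in the db/db libraries. CPM are counts scaled to a common library total with TMM factors. Because only the 3′ end of a transcript was read, longer transcripts do not gather more counts. Levels are therefore compared between genes without a length correction, but the level and rank of a gene whose 3′ end sequence also occurs elsewhere are uncertain.

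The start letters for which this gene group is known were found in a minority of the members, though more often than among all genes. Of the 56 members, 43 had a start sequence in the RefSeq table (build GRCm38.p6), and in 8 of these, 18.6%, the annotated start base was a C followed directly by at least 4 further C or T. The same letters stood at the start of 813 of 27025 genes in the table, 3.01%. Among members with a start sequence, those at 100 CPM or more had them in 1 of 10, those under 10 CPM in 4 of 14. The 8 members are printed with 10 bases before and 20 bases from the annotated start on, 5′ to 3′ on the gene's own strand. Capitals mark the pyrimidine run that begins at the start base.
Rpl14 (chr9:120571507-120571536, plus strand): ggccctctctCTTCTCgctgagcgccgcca
Rpl15 (chr14:18270967-18270996, minus strand): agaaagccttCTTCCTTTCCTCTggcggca
Rpl35a (chr16:33056472-33056501, plus strand): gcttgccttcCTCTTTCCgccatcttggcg
Rpl38 (chr11:114668570-114668599, plus strand): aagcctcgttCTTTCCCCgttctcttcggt
Rplp2 (chr7:141447641-141447670, plus strand): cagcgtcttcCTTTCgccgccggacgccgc
Rps10 (chr17:27635225-27635254, minus strand): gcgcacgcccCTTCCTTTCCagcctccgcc
Rps21 (chr2:180257369-180257398, plus strand): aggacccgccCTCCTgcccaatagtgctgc
Rps27rt (chr9:114982720-114982749, minus strand): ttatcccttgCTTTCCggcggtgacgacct
A longer run, a C followed by at least 7 C or T and beginning within 15 bases of the annotated start on either side, was present on the gene's strand in 20 of the 43 members, 46.5%, and in 13.1% of all genes in the table. An annotated start can lie some bases from the base that cells use, so a member without the letters at that exact base is not shown to lack them. Fold changes of the 8 genes were mixed in sign, and none had an adjusted p under 0.05 by edgeR. The mean level of Rpl14 was 191 CPM for db/m and 289 CPM for db/db (adjusted p = 0.108 by edgeR). Rpl15 and Rplp2 were among the members with negative fold changes (adjusted p = 0.438 and 0.882 by edgeR). Whether the 8 genes differed from each other in their response was not tested.

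The members differed more than 100 times in counted level. Mean levels over all 17 libraries ran from 2.03 CPM for Rpl7a, a large subunit protein, to 470 CPM for Rps14, a protein of the small subunit platform. After Rps14 came Rps20 of the small subunit head (465 CPM), Rpl4 of the peptide exit tunnel wall (436 CPM), Rplp1 (427 CPM) and Rpl8 (420 CPM), which lies close to the catalytic centre. The 6 highest members held 46.7% of the 435180 counts of the set. In the P stalk the levels spread from 427 CPM for Rplp1 to 123 CPM for Rplp0 and 13.2 CPM for Rplp2, whose product pairs with that of Rplp1. Part of the 3′ end sequence of Rpl7a, Rplp1 and Rplp2, among others, also occurs in other genes, so these levels and ranks are uncertain.

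The 30 symbols that missed the count minimum had 2354 counts in all. Among them were core proteins that every ribosome contains: Rps6, the phosphorylated target of S6 kinase, had 2 counts over the 17 libraries, Rpl24 had 4, Rpl35 had 5 and Rpl3 had 9. Rpl10l and Rpl39l, paralogs known from testis, had 0 counts, and 3 counts, the limit that a count of 0 allows, correspond to between 0.380 and 0.929 CPM in these libraries. Just inside the minimum lay Rpl7a with 159 counts and at least 10 counts in 8 libraries, and just outside lay Rps18 with 135 counts and 7 such libraries. Rpl30 also fell outside, with 443 counts that lay between 0 and 26.1 CPM. Low counts were also seen in other housekeeping genes with many processed copies, with 43 counts over all libraries for Gapdh and 484 for Eef1a1, the elongation factor that brings transfer RNAs to the ribosome.

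Many of these genes share 3′ end sequence with other annotated genes, and the share was larger among the low members. For each gene the last 200 bases of its transcripts were searched for 50-base words that also occur in another annotated gene. The median share of such words was 41.3% among the 56 members, of which 15 had none, and 58.0% among the 30 symbols below the minimum, of which 5 had none. Within the set it was 15.8% for the 17 members at 100 CPM or more and 47.6% for the 19 members under 10 CPM. The part of shared ends in the low counts was not tested, and the level of a gene with a shared end is uncertain. Symbols marked -ps took counts of their own: 121 of 300 had counts, 55910 in all. They were chosen by the mark in the symbol, and not all are annotated as pseudogenes. Rpl9-ps6, with 2147 counts, is annotated as protein-coding. Rps13-ps2 had 17509 counts against 217 for Rps13, and Rps25-ps1 had 7415 against 580 for Rps25.

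**Figure D1:**
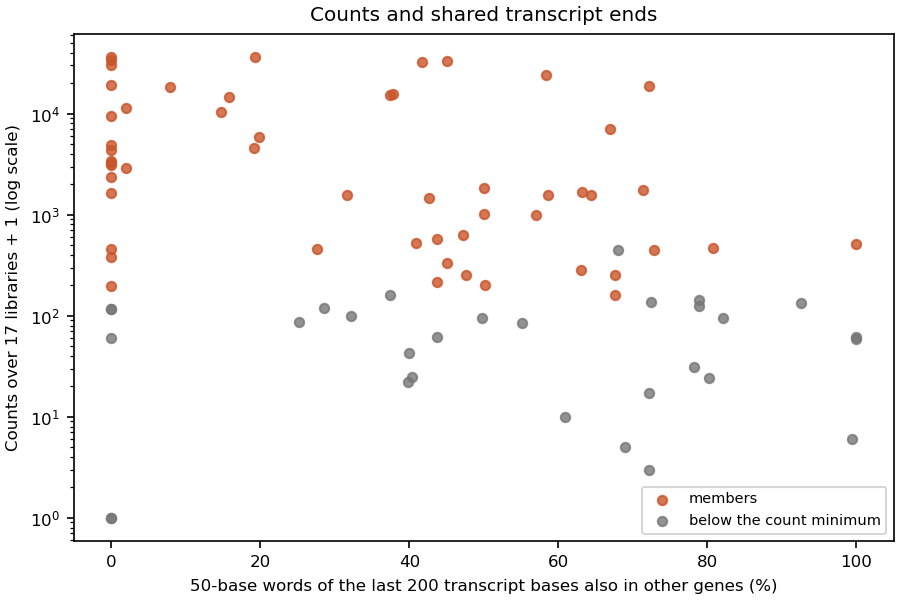
Counts summed over the 17 libraries plus 1, on a log axis (y), against the percent of 50-base words of the last 200 transcript bases that occur in another annotated gene (x). Points are 53 of the 56 members and the 30 symbols below the count minimum, whose full sets have medians of 41.3% and 58.0% on the x axis.

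Summed, the ribosomal protein genes took a larger share of the kidney's gene counts in db/db. Their summed share was 0.491% ± 0.0406 (SD, n = 8) in db/m, with a lowest, median and highest value of 0.433%, 0.495% and 0.550%. In db/db it was 0.612% ± 0.0903 (SD, n = 9), with 0.495%, 0.578% and 0.755%. The groups overlapped, with 6 of 9 db/db libraries above the highest db/m library, and the ratio of the means was 1.25. The highest shares were in db/db 7 (0.755%) and db/db 8 (0.746%), the pair that also stood apart on the first component. Without this pair the db/db mean was 0.573% ± 0.0516 (SD, n = 7), a ratio of 1.17, with 4 of 7 libraries above the db/m range. A summed share over chosen genes was given no test.

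The P stalk had the largest ratio of the 3 structural groups. Its share was 0.0449% ± 0.00561 (SD, n = 8) in db/m and 0.0657% ± 0.0162 (SD, n = 9) in db/db, a ratio of 1.46, with 8 of 9 db/db libraries above every db/m library. Without db/db 7 and 8 that ratio was 1.30, with 6 of 7 above. Most of this group's sum and of its difference was a single gene, Rplp1, with means of 337 CPM (db/m) and 507 CPM (db/db). Rplp0 was at 107 and 137 CPM, and Rplp2 at 13.9 and 12.6 CPM. Large subunit genes took 0.211% ± 0.0127 (SD, n = 8) and 0.262% ± 0.0415 (SD, n = 9), with 7 of 9 db/db libraries above the db/m range. Small subunit genes took 0.218% ± 0.0263 (SD, n = 8) and 0.266% ± 0.0331 (SD, n = 9), with 4 of 9 above. Taken as a share of gene counts without the mitochondrially encoded genes, the set was at 0.689% ± 0.0487 (SD, n = 8) in db/m and 0.841% ± 0.0983 (SD, n = 9) in db/db, with 8 of 9 db/db libraries above the db/m range. The pseudogene symbols took 0.0667% ± 0.00565 (SD, n = 8) and 0.0765% ± 0.00787 (SD, n = 9) of gene counts.

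**Figure D2:**
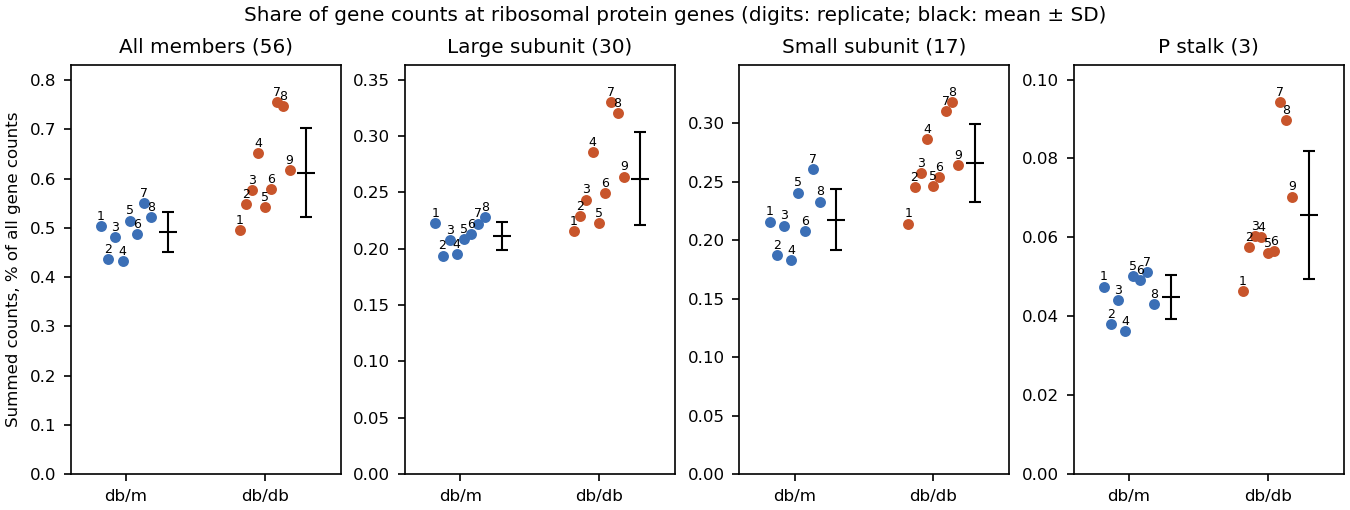
Percent of gene counts (y, from 0) taken by all 56 members and by the large subunit, small subunit and P stalk members in the 8 db/m and 9 db/db libraries. Points are libraries with their replicate number, bars the mean and SD, and db/db 7 and 8 are the highest in the panel of all members, at 0.755% and 0.746%.

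Gene by gene, few members passed the test. Counts of all 12131 genes that passed the filter on low counts were fitted in edgeR with its quasi-likelihood test, and a gene was called at a Benjamini-Hochberg adjusted p under 0.05 over those genes. Of the 55 members tested, 2 were called higher in db/db, Rplp1 among them, against 3.91% of all genes tested. None of the 55 was called lower, against 3.49% of all genes, and calls in either direction made up 7.39% of all genes. Without db/db 7 and 8 there was 1 call, which was not Rplp1. DESeq2 called 4 members higher, Rplp1 and Rplp0 among them, against 5.12% of all genes, and 0 lower. The calls of single members are thus close to the background. No member had groups that did not overlap, in either direction, against 0.734% of all genes for higher and 1.05% for lower.

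The directions leaned one way. A positive log2 fold change, higher in db/db, was found in 42 of the 55 members, against 50.5% of all genes, and the median was 0.15 against 0.00 for all genes. The lowest value was -0.64, for Rpl22l1. At an unadjusted p under 0.05, 15 members were higher and 0 lower, against 11.6% and 9.52% of all genes. The median was 0.17 in the large subunit (22 of 29 positive), 0.15 in the small subunit (13 of 17 positive), 0.36 in the P stalk (2 of 3 positive) and 0.19 among the paralogs (4 of 5 positive). Members were measured in the same libraries and are not independent of each other. With the percent of reads outside genes as a covariate, 30 of 55 were positive and the median was 0.04.

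**Figure D3:**
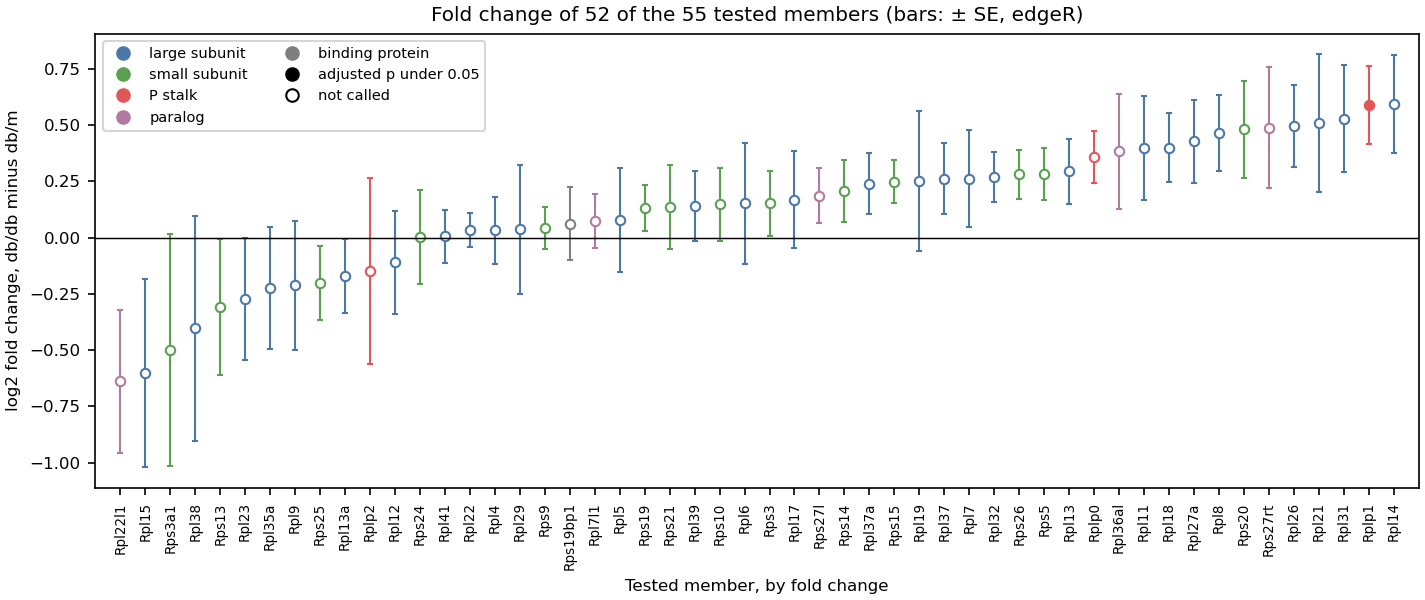
Log2 fold change of db/db against db/m (y) with its SE for 52 of the 55 tested members, ordered by fold change (x) and coloured by subunit. The filled point, Rplp1, passed the adjusted threshold, and the values run from -0.64 to 0.59 with 40 of 52 above 0.

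The P stalk gene Rplp1 on chromosome 9 rose in db/db. Among db/m animals it ran from 271 to 427 CPM with a median of 345, and among db/db animals from 340 to 820 CPM with a median of 416. The groups overlapped, 4 of 9 db/db libraries lay above the db/m range, and the highest were db/db 7 at 820 and db/db 8 at 804 CPM. The means were 337 ± 58.5 CPM (SD, n = 8) and 507 ± 180 CPM (SD, n = 9), a log2 fold change of 0.59 (SE 0.17, adjusted p = 0.0412 by the edgeR quasi-likelihood test). The call rested on single libraries: it was lost in 9 of the 17 fits that each left out 1 library (db/m 1, 2, 3, 4, 7 or 8, or db/db 7, 8 or 9), and the adjusted p ran from 0.0187 to 0.0947. With db/db 7 and 8 both left out the log2 fold change was 0.32 (adjusted p = 0.124), and an exact permutation test of mean log2 CPM gave p = 0.00621, or 0.0700 adjusted over all genes.

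Rplp0, on chromosome 5, encodes P0, the base of the stalk, and was higher than the db/m median in 9 of 9 db/db libraries without passing the adjusted threshold. The db/m libraries ran from 84.1 to 141 CPM and the db/db libraries from 102 to 161 CPM, with medians of 101 and 137. The log2 fold change was 0.36 (SE 0.12, adjusted p = 0.0658 by edgeR). Rplp2 on chromosome 7 went the other way in sign only, at 13.9 ± 8.76 CPM (SD, n = 8) and 12.6 ± 9.16 CPM (SD, n = 9), a log2 fold change of -0.15 (SE 0.41, adjusted p = 0.882 by edgeR). Its spread within each group was far wider than the difference, from 32.4 CPM in db/db 1 to 1.66 CPM in db/db 8, and its sign turned with the libraries, to 0.16 without db/m 8, 0.00729 without db/db 8, 0.31 without both and 0.11 without db/db 7 and 8.

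Among small subunit genes at 100 CPM or more, none passed the adjusted threshold by edgeR. Rps14, the member with the highest level, was at 435 ± 106 and 502 ± 83.7 CPM (SD, n = 8 and 9), with a log2 fold change of 0.21 (adjusted p = 0.419 by edgeR). Rps20 had its highest level, 1110 CPM, in db/db 8 and its lowest, 279 CPM, in db/db 1, so the db/db group enclosed the whole db/m range of 281 to 503 CPM. A pair of small subunit genes had among the most negative values, Rps25 of the head at -0.20 (adjusted p = 0.530) and Rps13 at -0.31 (adjusted p = 0.608), both by edgeR. With the counts of their pseudogene symbols added, both turned positive, Rps25 at 0.18 and Rps13 at 0.33. Rps13 had means of 2.98 CPM (db/m) and 2.40 CPM (db/db), whereas its pseudogene symbol Rps13-ps2 was at 198 and 251 CPM. Of the 14 listed proteins of the small subunit head, 8 were tested, of which 7 had positive values, with a list median of 0.20.

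No large subunit gene passed the adjusted threshold, by edgeR, and 7 of 29 were higher at an unadjusted p under 0.05. Rpl8 on chromosome 15 ran from 291 to 401 CPM among db/m and from 313 to 854 CPM among db/db animals, with medians of 359 and 413. Here 6 of 9 db/db libraries lay above the db/m range, and the log2 fold change was 0.46 (SE 0.17, adjusted p = 0.106 by edgeR). Rpl14 on chromosome 9, a protein of the subunit's surface, ran from 145 to 238 CPM among db/m and from 150 to 617 CPM among db/db animals, with medians of 189 and 244. The log2 fold change was 0.59 (SE 0.22, adjusted p = 0.108 by edgeR), and the highest levels were 617 CPM in db/db 8 and 404 CPM in db/db 7. With db/db 1 left out, 7 of 54 tested members were called higher, among them Rpl8, Rpl14 and Rpl26. The share of all genes called in that fit was not counted, so the 7 cannot be set against a background. In the same fit 2 of 73 mitochondrial ribosomal protein genes were called, against 0 with all libraries.

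Rpl4, whose protein lines the exit tunnel through which the new chain leaves, was the highest large subunit gene and showed little difference. It was at 431 ± 91.6 CPM (SD, n = 8) and 440 ± 102 CPM (SD, n = 9), a log2 fold change of 0.03 (SE 0.15, adjusted p = 0.931 by edgeR), which turned to -0.13 with reads outside genes as a covariate and to between -0.0265 and -0.00870 without db/m 7, db/db 1 or db/db 4. Rpl22, which also binds viral RNA, was at 186 ± 11.9 and 190 ± 11.9 CPM (SD, n = 8 and 9), with a narrow spread in both groups. The 6 tested exit tunnel proteins of 8 listed all had positive values with a median of 0.21, and none passed by edgeR, while 2 of them had an unadjusted p under 0.05. Rpl5 and Rpl11, which carry the 5S ribosomal RNA and bind the p53 regulator MDM2, had values of 0.08 and 0.40, neither called.

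Among the negative values in the large subunit, Rpl15 ran from 2.72 to 17.2 CPM among db/m and from 1.86 to 15.6 CPM among db/db animals, with medians of 6.02 and 4.14. Its log2 fold change was -0.60 (SE 0.42, adjusted p = 0.438 by edgeR). Rpl23, another protein that binds MDM2, was at 62.3 ± 28.2 and 51.6 ± 24.3 CPM (SD, n = 8 and 9), with -0.27 (adjusted p = 0.611 by edgeR). Rpl13a, also known from the control of inflammatory messenger RNAs, had -0.17 (adjusted p = 0.596 by edgeR). Rpl7a, the only member not tested because it missed the filter of the fit, was at 1.66 ± 0.738 and 2.36 ± 0.719 CPM (SD, n = 8 and 9).

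The paralogs and the binding protein gave no call. Rpl22l1, a paralog of Rpl22 that can take its place, had the lowest fold change of the set. The db/m libraries ran from 12.5 to 40.5 CPM, median 26.5, the db/db libraries from 1.66 to 24.7 CPM, and no db/db library lay above the db/m median. The means were 26.7 ± 9.64 CPM (SD, n = 8) and 17.2 ± 7.49 CPM (SD, n = 9). The log2 fold change was -0.64 (SE 0.32, adjusted p = 0.252 by edgeR), and the lowest value was in db/db 8. Rps27l, a paralog of Rps27 that p53 induces, was at 58.8 and 66.9 CPM with 0.19 (adjusted p = 0.411), and Rps27rt, a retrocopy of Rps27, at 4.83 and 6.85 CPM with 0.49 (adjusted p = 0.313), both by edgeR. Rpl36al was at 6.72 and 8.73 CPM with 0.38 (adjusted p = 0.423), Rpl7l1 had 0.07 (adjusted p = 0.786) and Rps19bp1 0.06 (adjusted p = 0.873), all by edgeR. Rps27l (-0.00896), Rpl7l1 (-0.0669) and Rps19bp1 (-0.0337) turned negative with reads outside genes as a covariate, and the latter pair also without db/db 7 and 8 (-0.0460 and -0.16).

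**Figure D4:**
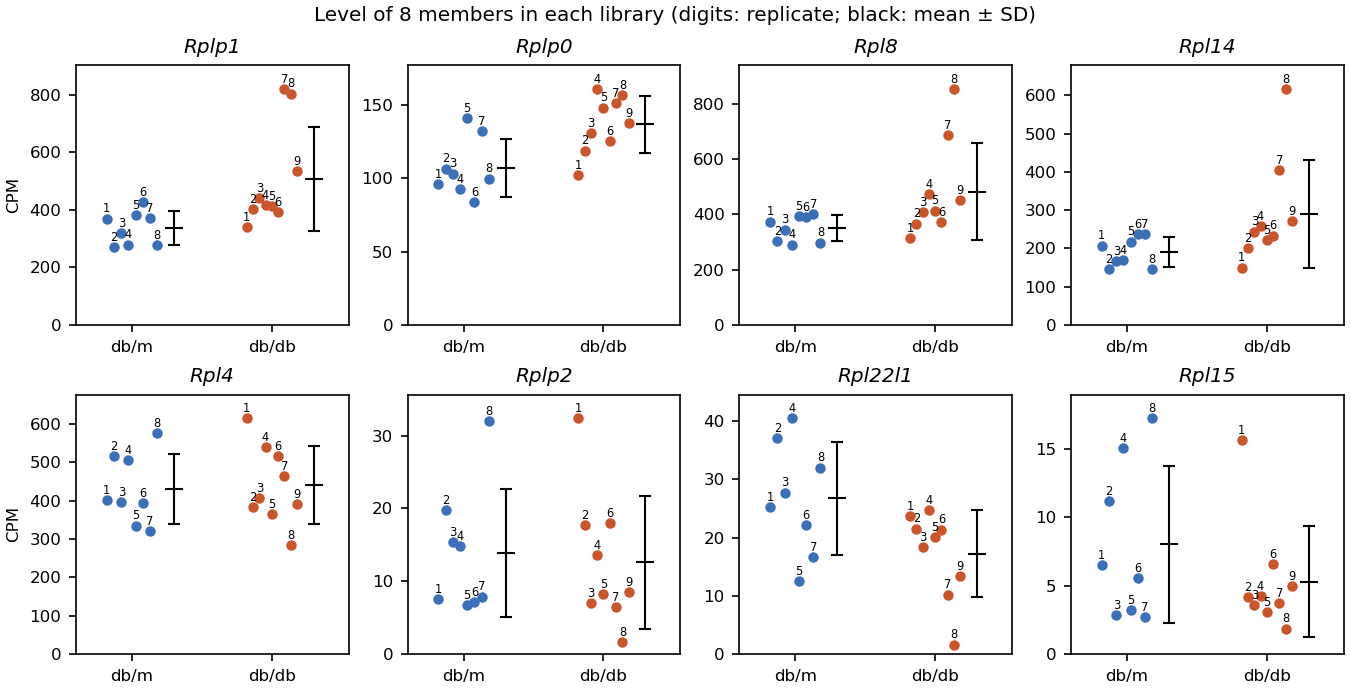
CPM (y, each panel from 0) of named members in the 8 db/m and 9 db/db libraries, with replicate numbers, means and SD. Rplp1 reaches 820 and 804 CPM in db/db 7 and 8, Rpl14 reaches 404 and 617 CPM there, and Rpl22l1 is lowest in db/db 8 at 1.66 CPM.

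The level of a member went along with its direction. All 17 members at 100 CPM or more had positive values with a median of 0.28, and 10 of them had an unadjusted p under 0.05 while 1 was called, Rplp1. Among all 1371 tested genes at that level, 57.9% were positive, 21.1% were higher at an unadjusted p under 0.05, 8.61% were called higher and the median was 0.05. Of the 20 members between 10 and 100 CPM, 16 were positive with a median of 0.14. Of the 18 tested members under 10 CPM, 9 were positive with a median of -0.02. With counts of the pseudogene symbols added to the parent gene, 12 of those 18 were positive with a median of 0.17. Without db/db 7 and 8, all 17 high members remained positive with a median of 0.17, and with reads outside genes as a covariate 13 of 17 were positive with a median of 0.23.

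In several libraries, but not in all, most of the high members lay on the same side of their own group median. In db/db 7 and in db/db 4, 16 of the 17 lay above their own db/db median, in db/db 1 only 3 did, and in db/db 2 none did. In db/m 7, 15 of the 17 lay above their own db/m median and in db/m 5 there were 14, whereas in db/m 2 there were 2 and in db/m 4 there were 3. The median deviation of the 17 from their own db/db median was 0.47 (log2 CPM) in db/db 7, 0.33 in db/db 8, where 10 of the 17 lay above it, and -0.29 in db/db 1. In db/db 8 the high members did not move together. Rps20 (1110 CPM), Rpl8 (854 CPM) and Rpl14 (617 CPM) were at their highest of all libraries there, and Rpl4 (285 CPM) at its lowest. Other genes at that level were not compared in this way. The parts of the first component, of the reads outside genes and of the mitochondrial share in these differences were not tested.

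Some members showed the reverse order of libraries. In db/m 8 and db/db 1 the level of Rplp2 was 32 and 32.4 CPM, and in db/db 8 it was 1.66 CPM. Rpl38, known from its role in the translation of Hox messenger RNAs, was at 13.8 CPM in db/m 8 and at 16.3 CPM in db/db 1 and had 0 counts in db/db 8, where 3 counts correspond to 0.621 CPM. Rpl4 followed them, at 577 and 615 CPM in db/m 8 and db/db 1 against 285 CPM in db/db 8. Rpl15 and Rpl22l1 were likewise lowest in db/db 8. These libraries, high or low for such members, are the ends of the first component of all genes.

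**Figure D5:**
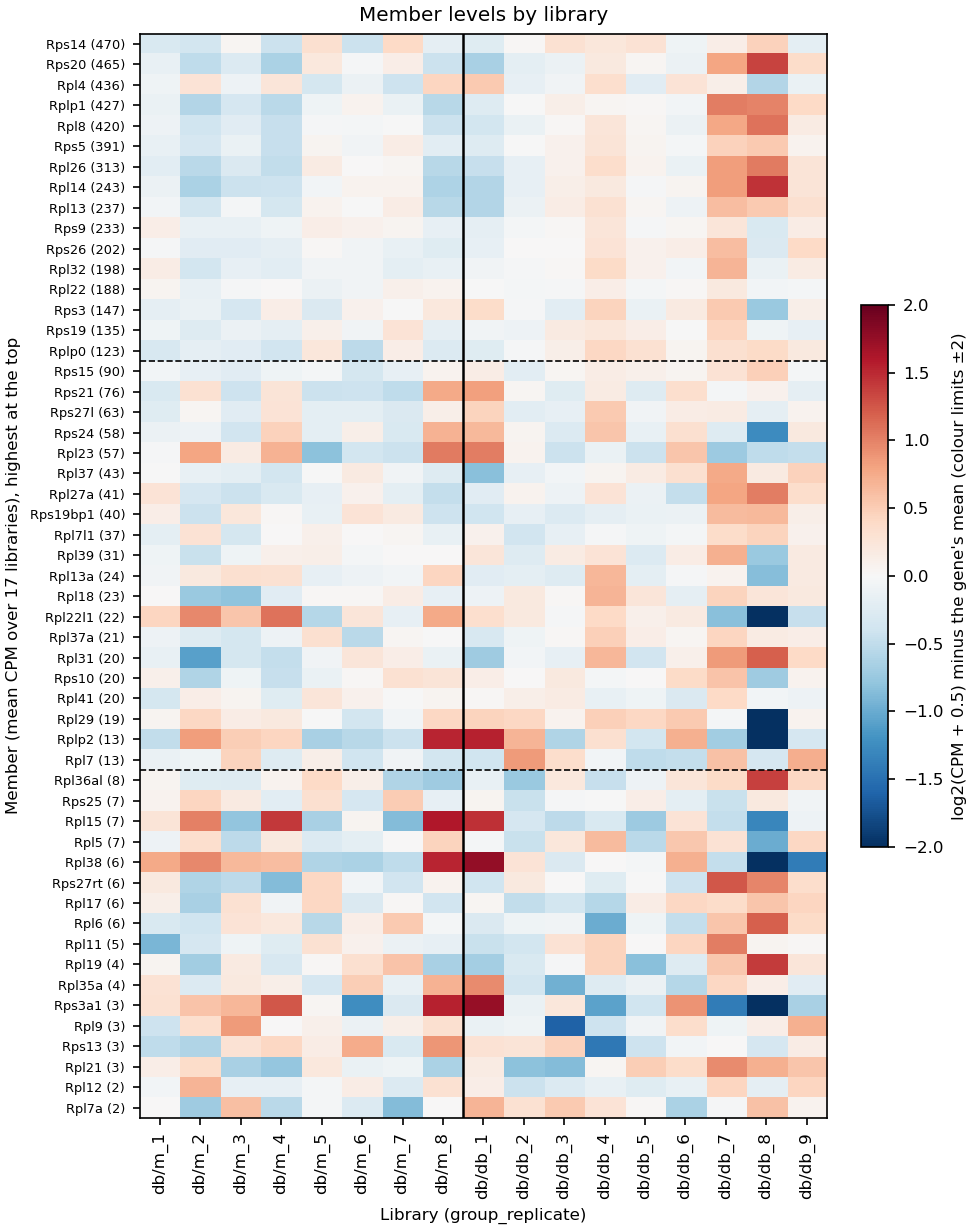
Deviation of log2(CPM + 0.5) from the gene's mean over all 17 libraries (colour, limits at 2 either way) for 53 of the 56 members (rows, highest mean CPM at the top, dashed lines at 100 and 10 CPM) in the 8 db/m and 9 db/db libraries (columns). High members are mostly above their mean in db/db 7, while Rplp2, Rpl38 and Rpl15 are above it in db/m 8 and db/db 1 and lowest in db/db 8.

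The genes around the ribosomal proteins did not share one direction. Of the ribosomal proteins with other names, the fusion gene Fau and the scaffold protein Rack1 were tested by edgeR and neither was called. Fau had a log2 fold change of 0.65 (SE 0.29, adjusted p = 0.204 by edgeR) and Rack1 was at 269 ± 11.4 and 297 ± 46.8 CPM (SD, n = 8 and 9). Of 22 tested translation genes with a TOP motif other than ribosomal proteins, 2 were called lower and 0 higher. Among all genes tested, 3.49% were called lower and 3.91% higher. In this list 10 of 22 were positive, with a median of -0.13. At an unadjusted p under 0.05 by edgeR, 3 were lower and 1 higher. Eif4b, a cofactor of the RNA helicase in cap-dependent initiation, fell from 81.7 ± 5.44 CPM (SD, n = 8) to 60.1 ± 5.67 CPM (SD, n = 9), a log2 fold change of -0.44 (SE 0.08, adjusted p = 0.00134 by edgeR). Nap1l1, a histone chaperone, fell with -0.54 (SE 0.16, adjusted p = 0.0360 by edgeR), a call lost in 8 of the 17 fits with 1 library left out and without both db/db 7 and 8 (adjusted p = 0.0735). Eif3a, the largest subunit of initiation factor 3, had -0.28 (adjusted p = 0.0858 by edgeR).

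Genes that build ribosomes were near the background. Of 38 tested genes of ribosome assembly and the nucleolus, 1 was called higher and 0 lower, against 3.91% and 3.49% of all genes. The median of the list was -0.03. Rrp12, needed for export of both subunits, rose from 5.35 ± 1.65 CPM (SD, n = 8) to 9.98 ± 4.85 CPM (SD, n = 9), a log2 fold change of 0.89 (SE 0.25, adjusted p = 0.0318 by edgeR), and the call was lost without db/m 1, 2, 3 or 4. Without db/db 7 and 8 its log2 fold change was 0.60 (adjusted p = 0.0826 by edgeR). Eif6, which keeps the subunits apart, had 0.49 (adjusted p = 0.0915) and Utp20, of the small subunit processome, 0.58 (adjusted p = 0.101), both by edgeR. Of 17 genes of RNA polymerase I, which transcribes ribosomal RNA, none was called by edgeR, 2 were higher and 1 lower at an unadjusted p under 0.05, and the median was -0.09. Its factor Ubtf had -0.43 (adjusted p = 0.0825 by edgeR), while Rrn3 had 0.24 and Taf1c 0.47.

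The gene of the kinase at the head of TOP control fell. Mtor ran from 113 to 150 CPM among db/m and from 52.8 to 89.4 CPM among db/db animals, so the groups did not overlap. The means were 125 ± 11.4 CPM (SD, n = 8) and 74.0 ± 13.2 CPM (SD, n = 9), a log2 fold change of -0.76 (SE 0.11, adjusted p = 8.73e-05 by the edgeR quasi-likelihood test). Of the 30 genes listed for mTORC1 and TOP control, all tested, Mtor was the only one called, and the median was 0.09. Lamtor5, of the lysosomal anchor of mTORC1, had 0.45 (adjusted p = 0.116) and Pdcd4, an S6 kinase target that holds back initiation, 0.38 (adjusted p = 0.138), both by edgeR. Messenger RNA level gives no measure of the kinase's activity.

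The mitochondrial ribosome, built from other genes, gave a similar lean. Of 73 tested mitochondrial ribosomal protein genes, none was called by edgeR, 13 were higher and 1 lower at an unadjusted p under 0.05, 54 were positive and the median was 0.11. Mrps25 had 0.46 (adjusted p = 0.0593), Mrpl50 -0.46 (adjusted p = 0.113) and Mrps16 0.44 (adjusted p = 0.121), all by edgeR. The difference between the cytosolic and the mitochondrial genes was not tested.

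Markers of several kidney cell types also differed between the groups. By edgeR, 4 of 6 markers of the distal convoluted and connecting tubule were called higher (Calb1, Trpm6, Slc8a1 and Klk1), and they summed to 1002 to 1335 CPM in the db/m libraries and 1472 to 2235 CPM in the db/db libraries. For principal cells 4 of 6 were called higher (273 to 921 and 651 to 1635 CPM), and for intercalated cells 4 of 6 (161 to 228 and 237 to 324 CPM). Of the podocyte markers 2 of 6 were called higher, Nphs1 among them (153 to 210 and 177 to 254 CPM). Markers of B and plasma cells summed to 35.4 to 419 CPM (db/m) and 7.12 to 48.9 CPM (db/db), with 2 of the 3 tested called lower (Igkc and Igha) and Cd79a at 0. Macrophage and dendritic cell markers had 6 negative values of 6 tested and no call. T and NK cell markers summed to at most 7.41 CPM and adrenal cortex markers to at most 5.28 CPM, with Cyp11b2 at 0. Their part in the levels of the ribosomal protein genes was not tested.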

How the data were processed

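Gene counts of 17 kidney libraries (8 db/m, 9 db/db) were analysed. The authors deposited raw counts per gene from 3′ libraries (QuantSeq, forward), per the labels' protocols. Per the submitters' processing notes, reads were handled with STAR 2.7.3a and HTSeq 2.16.2 and the build was GRCh38, whereas the table lists mouse Ensembl identifiers. Which mouse annotation and strand setting were used, and how molecular identifiers were treated, is not given in the sources used here. The protocol text speaks of cells in plates, the tissue field of kidney. Lines for reads outside genes (19.3% of the table) and ambiguous reads (0.533%) entered neither library sizes nor tests. Symbols were found for 55141 of 55487 identifiers, and those without one held 0.00885% of counts. Biotypes, chromosomes and transcript ends came from GENCODE M21 and start sequences from RefSeq GRCm38.p6.

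Differences were tested in R 4.3.3 with edgeR 4.0.16 (TMM, filterByExpr with a minimum count of 10, glmQLFit and glmQLFTest, Benjamini-Hochberg over 12131 genes), after tests on simulated data. SEs were derived from the fold change and F statistic. Single genes also had a two-sided exact permutation test on group means of log2 CPM (prior count 2, 24310 assignments). Alternatives were DESeq2 1.42.0, other scalings and filters, a covariate, a replicate block, leaving out libraries, and adding pseudogene counts. Labels give separate animals. No pair of libraries of a group agreed within sampling noise (lowest chi-square per degree of freedom 3.83).

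The members, lists and level classes were chosen with earlier results of these data known. Named were the called members, up to 6 members with the smallest p in each direction, the highest and lowest member of each subunit group, every paralog, and the 3 smallest p of each related list. Rps20, Rpl38, Rpl30, Rpl22 and Rpl26 were named after their values were seen. Some genes that the rule names, a called member among them, are not reported here and are left out of the plots.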

Additional observations from a re-analysis of the deposited data

Results flagged for a closer look

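A gap test was run on 82 groups of libraries, for named genes and for the summed shares of the set and its structural groups. In 7 groups, all for named genes, 1 library stood apart from the rest of its group. The measure was the gap to the nearest library over the group's range, above 0.526 for 8 libraries and 0.493 for 9. Chance flags about 1 in 20 groups. Values are log2 CPM. Rpl22l1 was at 1.06 in db/db 8, with the nearest db/db library at 3.41. Rps13 was at 0.0532 in db/db 4 and lowest there. The assembly factor gene Rrp12 was at 4.51 in db/db 8, nearest 3.42. Taf1c, of the RNA polymerase I initiation factor, was at 4.14 in db/db 8, nearest 3.37, and at 1.68 in db/m 4, nearest 2.68. Lamtor5 was at 4.91 in db/m 8, nearest 5.27, and Pdcd4 at 6.49 in db/m 8, nearest 5.88. Of the 7 libraries, 3 are db/db 8 and 2 are db/m 8, the opposite ends of the first component.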

How the results depend on the processing

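The 2 members called higher became 4 with DESeq2, 1 with reads outside genes as a covariate, 1 without both ends of the first component (db/m 8 and db/db 8), 1 without db/db 7 and 8 (chosen after seeing the data), 1 by the exact permutation test and 0 with no filter on low counts, and ranged from 1 to 7 with 1 library left out. None was called lower under any setting. Except for DESeq2, the share of all genes called was not counted for these settings. The members' median stayed positive throughout, from 0.14 to 0.19 with 1 library left out and 0.04 with the covariate, and the difference in summed share ran from 0.103 to 0.136 with 1 library left out. The 2 calls among other TOP genes became 1 with the covariate, 1 without both ends and 1 without db/db 7 and 8 (1 to 3 with 1 library left out). The 1 call in ribosome assembly became 0 without both ends and 2 without db/db 7 and 8 (0 to 2 with 1 left out). The 1 call in mTORC1 became 2 without both ends (1 to 2), the 0 calls among mitochondrial ribosomal proteins became 1 with DESeq2 and 1 without db/db 7 and 8 (0 to 2), and the 0 calls for RNA polymerase I ranged from 0 to 1. Rplp1 lost its call with no filter (adjusted p = 0.0510), with the covariate (0.232) and without both ends (0.106), all by edgeR. For single genes with 1 library left out, 587 results kept direction and side of the threshold, 14 gained a call, 21 lost one and 7 turned in sign; under other settings these were 428, 7, 17 and 12. All that turned were uncalled on both sides. With pseudogene counts added, Rps25 turned to 0.18 and Rps13 to 0.33. With the covariate, Rpl4 turned to -0.13, Rps19bp1 to -0.0337, Rpl7l1 to -0.0669 and Rps27l to -0.00896. Without both ends, Rplp2 turned to 0.31, Rps19bp1 to -0.0898 and Rpl7l1 to -0.00576. Without db/db 7 and 8, Rplp2 turned to 0.11, Rps19bp1 to -0.16 and Rpl7l1 to -0.0460. With 1 library left out, Rpl4 ran from -0.0265 to 0.10, Rplp2 from -0.45 to 0.16 and Rps19bp1 from -0.0366 to 0.12. The cause was not tested.

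Deviations of same-numbered libraries correlated between -0.454 and 0.212. Libraries of different number were not compared, so these values cannot settle whether replicate numbers pair the animals. With the replicate block 0 members were called higher (Rplp1 adjusted p = 0.176, by edgeR), with 1 call among other TOP genes and 0 in ribosome assembly. Depth limits the members under 10 CPM.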
